A study of Mus musculus with 6 samples.

Results

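Transcripts of the lysosome were compared between ventral midbrain labelled Bach1 KO and wild type: the subunits of its proton pump, its proteases and glycosidases, its main membrane proteins and a transcription factor that controls them. Members were taken by symbol from probe sets assigned to a single gene: every Atp6v0, Atp6v1, Atp6ap, cathepsin (Cts) and Lamp gene, together with Gla, Glb1, Hexa, Neu1, Gaa, Gusb, Npc1, Npc2, Tfeb and Mcoln1. Where a gene had several probe sets, the brightest over the 6 arrays stood for it. This gave 55 genes of 22180 measured in the same way, read by 59 probe sets in all. Atp6v0c and Glb1 had no probe set of their own and were not analysed here as members. Atp6v1fnb entered through its symbol, which names it as a neighbour of Atp6v1f, and it is kept apart from the pump subunits.

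Male mice were 2 months old when the tissue was taken, with 3 arrays of Bach1 knockout and 3 of age-matched wild type. Affymetrix arrays were used, and the values are log2 levels per probe set. Neither the strain nor the structure of the knockout allele was given in the sources used here, and nothing in the labels says whether replicates are different mice. The p-values therefore measure the spread between these samples, which may be technical. The number of arrays limits the precision. Brightness also depends on the probes, so levels of different genes are not ranked against each other.

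The lysosome is the acidic compartment in which cells break down proteins, lipids and sugars. A V-ATPase pumps protons across its membrane: the peripheral V1 sector hydrolyses ATP and the membrane-embedded V0 sector carries the protons. Acid hydrolases work in the lumen, and a heavily glycosylated coat of LAMP proteins lines the membrane. TFEB switches on many of these genes through short sequences called CLEAR elements, whose core is the E-box CACGTG. In dopamine neurons the pathway is of interest because inherited defects of lysosomal enzymes and pump regulators are linked to Parkinson disease. BACH1 is a heme-binding repressor that occupies antioxidant response elements.

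Promoter stretches of 6 members are shown because they carry the element through which lysosomal genes are known to be regulated. Sequences are from RefSeq (GRCm38.p6), in windows from 250 bases before to 50 after a transcription start, and 44 of the 55 members matched the table. They read 5′ to 3′ on the gene's strand, and capitals mark each CACGTG and each TGACNNNGC, a loose form of the BACH1 and NRF2 type of element, on either strand. The stretches are Lamp1 at chr8:13159086-13159160 (+), Mcoln1 at chr8:3500439-3500488 (+), Ctsd at chr7:142387858-142387937 (-), Atp6v1a at chr16:44139290-44139399 (-), Gla at chrX:134601186-134601240 (-) and Atp6v0b at chr4:117887335-117887374 (-).
Lamp1: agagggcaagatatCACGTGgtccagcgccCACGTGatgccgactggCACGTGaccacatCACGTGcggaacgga
Mcoln1: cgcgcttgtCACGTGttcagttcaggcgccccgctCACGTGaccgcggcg
Ctsd: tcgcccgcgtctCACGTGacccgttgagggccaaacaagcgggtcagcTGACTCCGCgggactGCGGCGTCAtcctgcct
Atp6v1a: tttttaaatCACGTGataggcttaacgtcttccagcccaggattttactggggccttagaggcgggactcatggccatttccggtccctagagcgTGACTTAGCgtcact
Gla: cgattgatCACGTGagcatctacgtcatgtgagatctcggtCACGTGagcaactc
Atp6v0b: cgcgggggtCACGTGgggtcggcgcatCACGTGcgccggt

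Lamp1 held 4 E-box cores in its window, all within 61 bases before the start, and Mcoln1, Gla, Atp6v0b, Ctsa and Ctsd held 2 each, of which Ctsd's second lies outside the stretch shown. CACGTG occurred in 12 of 44 members (27.3%), against 8.09% of all 27025 genes with a promoter window. The longer palindrome TCACGTGA, which contains that core, occurred in 7 members (15.9%), against 1.12% of all genes. TGACNNNGC occurred in 8 members (18.2%), among them Ctsd and Atp6v1a, against 14% of all genes. The fixed form TGACTCAGC, which the loose form includes, occurred in 0 members, against 0.503% of all genes. Both strands were searched, and a match describes letters in a window, not a bound site.

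The dissection and the labels were read before the members. Th, which encodes tyrosine hydroxylase of dopamine synthesis, was at 11.02 to 11.49 and the dopamine transporter gene Slc6a3 at 11.69 to 12.17 over all arrays. The Bach1 probe set was at 7.59, 7.68 and 7.70 on the knockout-labelled arrays and at 7.46, 7.59 and 7.57 on the wild-type arrays. It was thus not lower where the label is knockout, and a probe set outside a deleted part checks nothing, so directions follow the labels. Hmox1, a known BACH1 target, was 3.85-fold higher on the knockout-labelled arrays (limma, adjusted p = 0.0181). Of all 41345 probe sets, 3 passed the adjusted p of 0.05 (0.00726%). Markers of hypothalamus and pituitary were lower in 9 of 9 genes, with array scores (mean log2 level minus that of wild type) of -1.51 to -0.51 in the knockout-labelled group and -0.56 to 0.67 in wild type. Dopaminergic markers had a higher mean in 10 of 11 genes (median 0.17, limma called 0), and endothelial and mural markers a lower mean in 10 of 10 (median -0.15, limma called 0). Striatal markers were lower in 5 of 5 and meningeal markers in 6 of 8, and wild-type replicate 1 stood apart from the other wild-type arrays in both, with scores of -0.47 and -0.51 against 0.19 to 0.27. The part of these tissue differences in any lysosomal gene was not tested.

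Lysosomal transcripts were close to equal in the 2 groups. Means were higher on the knockout-labelled arrays for 28 of the 55 members and lower for 27, with a median log2 difference of 4.13e-05 beside -0.0098 over all genes. Higher means thus made up 50.9% of members and 46.9% of all genes. After each array was centred on its median, 15 of the 55 were higher, with a median of -0.047 beside -0.057 over all genes. Centring lowered the difference of every gene by the same amount, so all counts given after centring carry that common shift. Limma called 0 members in either direction, where 1 of the 22180 genes (0.00451%), Hmox1, was called. At an unadjusted p under 0.05 there was 1 member, Atp6v1g3, against 6.51% of all genes, or 3.8% in its direction, higher.

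Limma's intervals give the precision of each difference, gene by gene and unadjusted for the number of members. They rest on a spread between samples that may be technical, and tissue differences between the groups are not removed from them. The 95% interval lay within 1.25-fold in both directions for 34 of 55 members and within 1.5-fold for 49. The exceptions at 1.5-fold were Atp6v1g3, Atp6v0a4, Atp6v1b1, Ctsh, Ctsm and Ctsq. Among the 44 members whose mean was above the 40th percentile of all probe sets (5.07), 33 lay within 1.25-fold (75%), against 45.9% of all genes above it. The median absolute difference of these 44 members was 0.045 and that of all such genes 0.079. These sets were not matched for level: the median of the mean levels was 9.89 for the 44 members and 7.53 for all such genes. Both measures varied with level. Among all genes below the 40th percentile, with a median level of 4.07, 10.8% lay within 1.25-fold and the median absolute difference was 0.14. The part of brightness in the narrower intervals and smaller differences of the members was not tested.

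**Figure D1:**
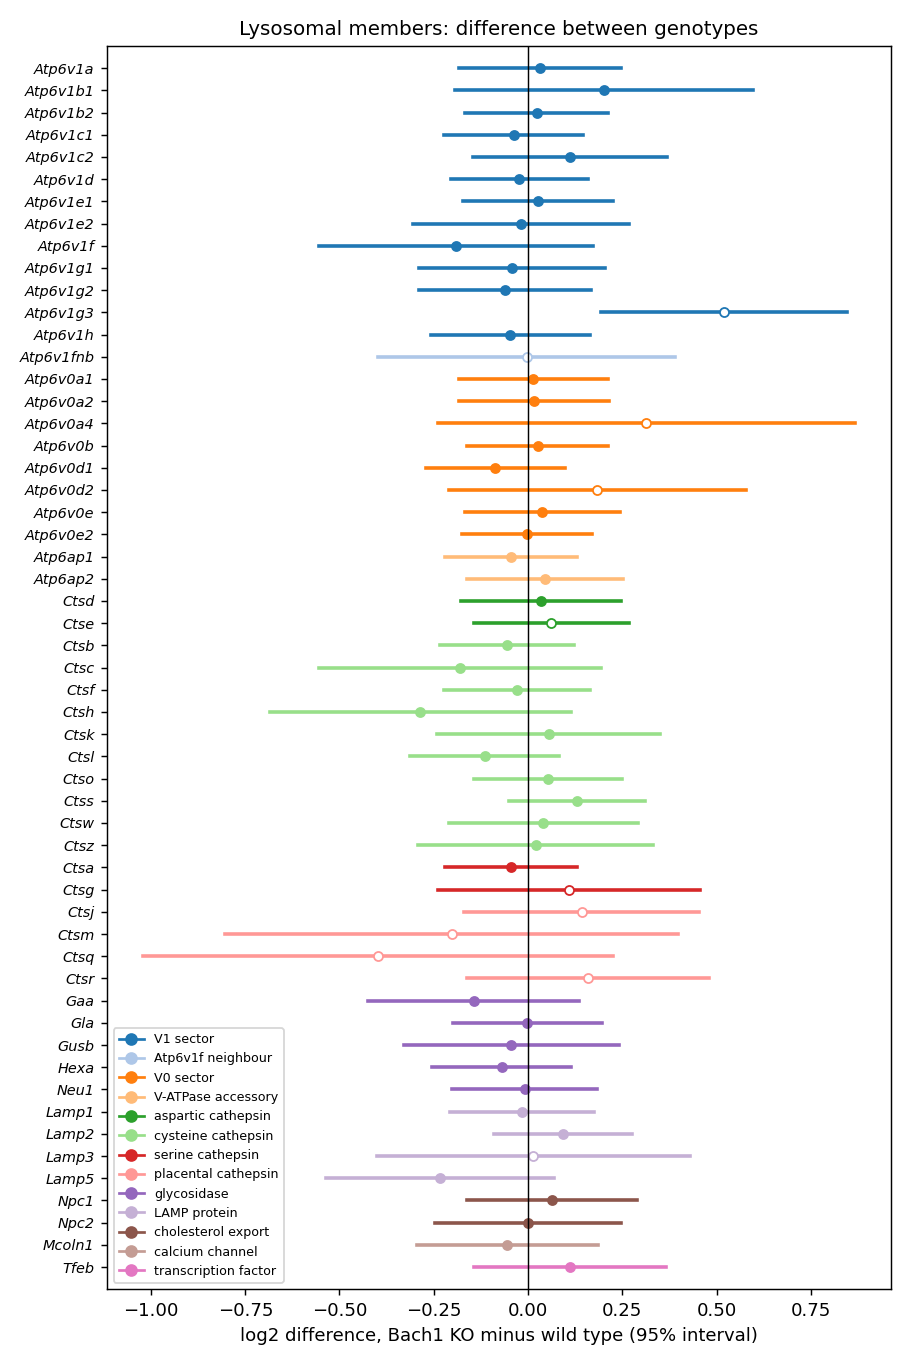
Log2 difference between knockout-labelled and wild-type arrays for the 55 members, coloured by role. Points are fitted differences, bars are 95% intervals from limma (3 arrays a group), and open points mark members with a mean under the 40th percentile of all probe sets. The bar of Atp6v1g3 is the one that does not reach 0.

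Subunits of the V1 sector, the ATP-hydrolysing part of the pump, had 6 higher and 7 lower means among 13, with a median of -0.019. After median centring 3 were higher and 10 lower. Atp6v1a, the catalytic A subunit, was at 11.17, 11.39 and 11.30 on the knockout-labelled and at 11.22, 11.29 and 11.26 on the wild-type arrays. Its log2 difference was 0.033 (95% interval -0.18 to 0.25), and the wild-type values all lay inside the knockout-labelled range. The B subunit of the brain, Atp6v1b2, was at 12.39, 12.46 and 12.42 against 12.34, 12.38 and 12.47, a difference of 0.023 (95% interval -0.17 to 0.21). A second probe set of this gene gave 0.019. The V1 genes Atp6v1c1, Atp6v1d, Atp6v1e1, Atp6v1g1, Atp6v1g2 and Atp6v1h, had differences from -0.062 to 0.027, and their groups overlapped. Atp6v1g2 is the neuronal form of the G subunit in the stalk, and Atp6v1g1 the widespread form. Further probe sets of Atp6v1g1 gave -0.0043 and -0.023, beside -0.042 for the brightest.

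Atp6v1f, which encodes the F subunit of the central shaft, gave a low signal and the lowest V1 difference. Its values were 5.74, 5.24 and 5.34 on the knockout-labelled arrays and 5.64, 5.73 and 5.52 on the wild-type arrays. Knockout-labelled replicate 1 was the highest of all 6, so the groups overlapped (difference -0.19, limma, adjusted p = 0.758). Its neighbour Atp6v1fnb was at -0.0039.

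Isoforms known from kidney or testis gave low signals. Atp6v1g3, a G subunit of kidney intercalated cells, was at 4.51, 4.53 and 4.31 on the knockout-labelled and at 4.18, 3.84 and 3.78 on the wild-type arrays. All knockout-labelled values lay above all wild-type values, and the log2 difference was 0.52 (SE 0.13, 95% interval 0.19 to 0.85, limma, adjusted p = 0.516). Its mean lay at percentile 24.2 of all probe sets, where the array carries little signal. Of the 6390 genes with means under the 40th percentile, 62.3% were higher in the knockout-labelled group, with a median of 0.060, beside 8 of 11 dim members with a median of 0.11. The kidney B subunit Atp6v1b1 was at 5.42, 5.85 and 5.27 against 5.41, 5.29 and 5.24, and its difference of 0.20 came mostly from replicate 2 of the knockout-labelled group (0.031 without it). Atp6v1c2 was at 5.58, 5.39 and 5.69 against 5.53, 5.42 and 5.38, a difference of 0.11. The testis form Atp6v1e2 differed by -0.019.

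The V0 sector, which conducts the protons, had 6 higher and 2 lower means among 8, with a median of 0.021. After each array was centred on its median, 2 were higher and 6 lower. Atp6v0a1, the a subunit of synaptic vesicles and neuronal lysosomes, was at 11.33, 11.38 and 11.34 on the knockout-labelled and at 11.25, 11.42 and 11.34 on the wild-type arrays. The difference was 0.014 (95% interval -0.18 to 0.21). Atp6v0a2, Atp6v0b, Atp6v0e and Atp6v0e2 differed by -0.0028 to 0.038. Atp6v0d1, which couples the rotor to the V1 sector, was the V0 gene whose groups separated, at 11.44, 11.46 and 11.36 against 11.51, 11.53 and 11.48. Its difference was small (-0.087, 95% interval -0.27 to 0.097, limma, adjusted p = 0.785). The kidney form Atp6v0a4 and the osteoclast form Atp6v0d2 were dim, with differences of 0.31 and 0.18 and wide intervals of -0.24 to 0.87 and -0.21 to 0.58.

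The accessory subunits moved apart by less than their error. Atp6ap2, the prorenin receptor, which serves in pump assembly, was at 11.63, 11.76 and 11.69 against 11.70, 11.55 and 11.68 (difference 0.045). Atp6ap1 was at 11.66, 11.67 and 11.63 on the knockout-labelled and at 11.69, 11.73 and 11.68 on the wild-type arrays, so the groups did not overlap. The difference of -0.046 had a 95% interval of -0.22 to 0.13 (limma, adjusted p = 0.89).

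Members with groups that do not overlap were about as frequent as among all genes. Atp6v1g3, Ctss and Lamp2 separated in the higher direction, 3 of 55 (5.45%) against 6.36% of all genes. Atp6ap1, Atp6v0d1, Ctsl and Lamp5 separated in the lower direction, 4 of 55 (7.27%) against 7.94%.

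**Figure D2:**
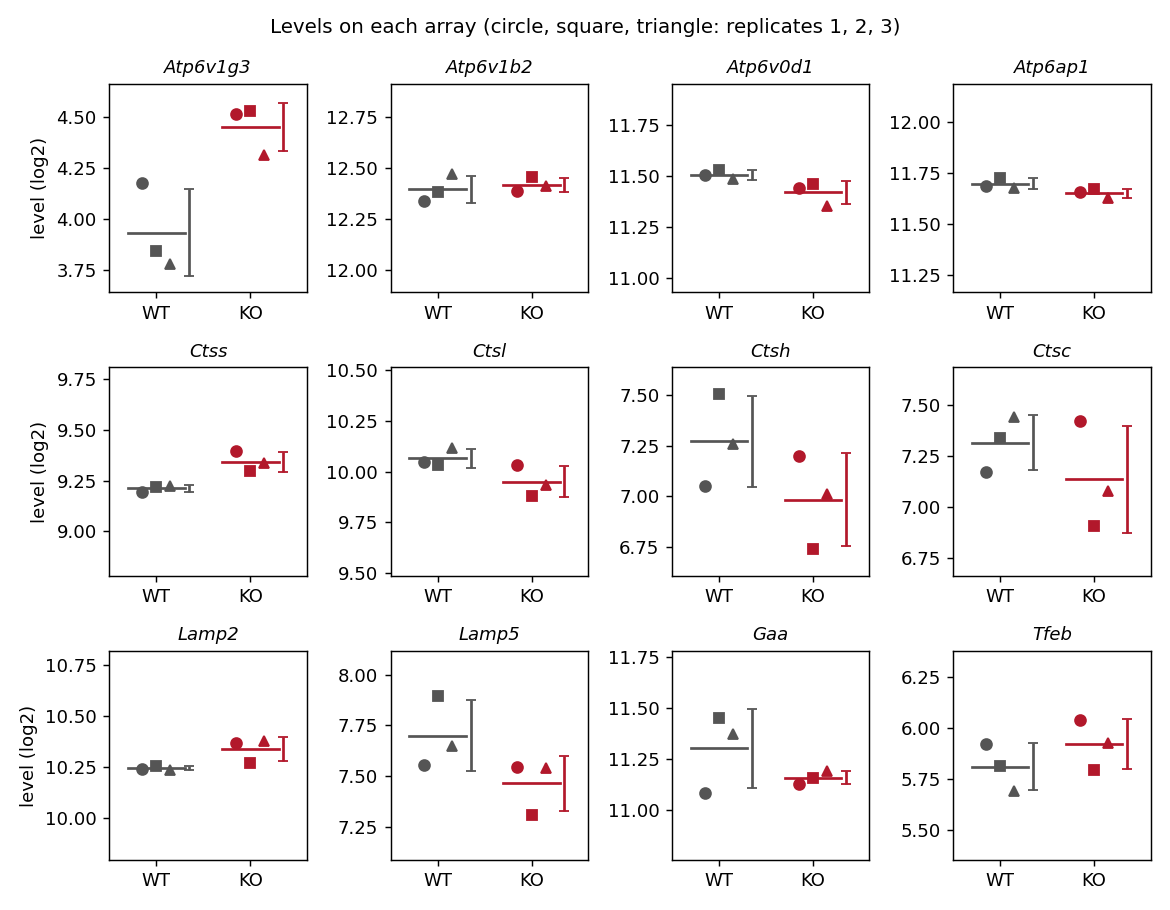
Log2 levels of 12 members on every array, with wild type in grey and knockout-labelled in red. Horizontal lines are group means, bars at the side are SDs (n = 3), and all panels span the same number of log2 units. Atp6v1g3, Ctss and Lamp2 separate upward and Atp6v0d1, Atp6ap1, Ctsl and Lamp5 downward, while Ctsh, Ctsc, Gaa, Tfeb and Atp6v1b2 overlap.

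Cathepsins, the main proteases of the lysosome, had 10 higher and 8 lower means among 18, or 7 and 11 after median centring and also without knockout-labelled replicate 1. Ctsd, the major aspartic protease of neurons, was at 11.25, 11.05 and 11.09 on the knockout-labelled arrays and at 11.09, 11.14 and 11.07 on the wild-type arrays. Its difference was 0.034 (95% interval -0.18 to 0.25). The cysteine protease gene Ctsb was at 11.99, 11.94 and 11.91 against 12.01, 11.98 and 12.02. The 95% interval of its difference of -0.055 was -0.23 to 0.12, and knockout-labelled replicate 1 lay within the wild-type range. Ctsa, the serine carboxypeptidase that protects the sialidase and galactosidase complex, differed by -0.045.

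Ctss and Ctsl, broad cysteine proteases, separated in opposite directions. Ctss, which is made mainly by microglia in brain, was at 9.39, 9.30 and 9.34 against 9.19, 9.22 and 9.23. The difference was 0.13 (95% interval -0.052 to 0.31, limma, adjusted p = 0.683). Ctsl was at 10.03, 9.88 and 9.94 on the knockout-labelled and 10.04, 10.03 and 10.12 on the wild-type arrays, so the gap between the groups was far smaller than the spread within them. Its difference was -0.12 (95% interval -0.31 to 0.082, limma, adjusted p = 0.734).

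Microglial markers were measured beside Ctss. Of 12 such genes 10 had a higher mean in the knockout-labelled group, limma called 0, and 0 reached an unadjusted p under 0.05. Their mean level was 8.05 to 8.21 in the knockout-labelled group and 8.08 to 8.13 in wild type, so the groups overlapped. The fractalkine receptor gene Cx3cr1 separated as Ctss did (difference 0.16, limma, adjusted p = 0.641), while the purinergic receptor gene P2ry12 differed by -0.13. Separation in the higher direction was seen in 1 of the 12 (8.33%), against 4.98% of all genes above the 40th percentile. In bulk tissue, a different number of cells of a type and a different amount of RNA per cell cannot be told apart, and the part of microglia in the Ctss difference was not tested.

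The lowest cathepsin differences among bright members were those of the aminopeptidase genes Ctsh and Ctsc, which are also strong in myeloid cells. Ctsh was at 7.20, 6.74 and 7.01 on the knockout-labelled and at 7.05, 7.50 and 7.26 on the wild-type arrays. The difference of -0.29 (95% interval -0.69 to 0.11) did not pass (limma, adjusted p = 0.683). Ctsc was at 7.42, 6.91 and 7.08 against 7.17, 7.34 and 7.44, a difference of -0.18 (limma, adjusted p = 0.779). In both genes knockout-labelled replicate 2 was the lowest array, and replicate 1 lay inside the wild-type range. Ctsf, Ctsk, Ctso, Ctsw and Ctsz differed by -0.030 to 0.055.

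Cathepsins that are not brain enzymes were close to the floor of the array. The placental cathepsins Ctsj, Ctsm, Ctsq and Ctsr had means of 2.59 to 4.34 and differences from -0.40 to 0.16. For Ctsq the value on wild-type replicate 3 was 3.62 and the other arrays ran from 2.55 to 3.02. Neutrophil Ctsg and gastric and lymphoid Ctse, at 4.08 and 4.69, differed by 0.11 and 0.062.

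The glycosidases, which trim sugars from glycolipids, glycogen and glycosaminoglycans, had 5 lower means of 5, with differences from -0.14 to -0.0016. After renewed quantile normalization 2 of the 5 were higher. Hexa, a subunit of the hexosaminidase that degrades ganglioside GM2, was at 9.42, 9.35 and 9.44 on the knockout-labelled and at 9.49, 9.42 and 9.50 on the wild-type arrays. The difference of -0.070 had a 95% interval of -0.25 to 0.11. Gaa, the acid glucosidase of glycogen breakdown, was at 11.13, 11.16 and 11.19 against 11.08, 11.45 and 11.37. Its difference was -0.14 (95% interval -0.42 to 0.14, limma, adjusted p = 0.763), and it was wild-type replicate 1, lowest of all arrays, that made the groups overlap. The galactosidase gene Gla, the sialidase gene Neu1 and the glucuronidase gene Gusb differed by -0.0016, -0.0085 and -0.044.

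Of the membrane proteins, Lamp1 and Lamp2 make up much of the lysosomal coat, and Lamp2 also serves as the receptor of chaperone-mediated autophagy. Lamp1 was at 11.74, 11.59 and 11.70 against 11.68, 11.69 and 11.71 (difference -0.016, 95% interval -0.21 to 0.18). Lamp2 was at 10.37, 10.27 and 10.38 on the knockout-labelled and at 10.24, 10.25 and 10.24 on the wild-type arrays. The wild-type values were nearly identical and lay below all knockout-labelled values, yet the difference of 0.093 had a 95% interval of -0.090 to 0.28 (limma, adjusted p = 0.766). Lamp5, a member of the family that neurons use and that is not on ordinary lysosomes, was at 7.55, 7.31 and 7.54 against 7.56, 7.89 and 7.65. The gap between the groups was narrow, and the difference was -0.23 (95% interval -0.54 to 0.068, limma, adjusted p = 0.664). Lamp3, a gene of dendritic cells, was dim and differed by 0.014.

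Cholesterol leaves the lysosome through NPC2 in the lumen and NPC1 in the membrane. Npc1 was at 10.43, 10.28 and 10.53 against 10.39, 10.31 and 10.34 (difference 0.065, 95% interval -0.16 to 0.29), and a dimmer probe set of the gene gave -0.029. Npc2 was at 9.60, 9.35 and 9.56 on the knockout-labelled arrays and at 9.55, 9.54 and 9.41 on the wild-type arrays, and its group means differed by 4.13e-05. Mcoln1, the calcium channel that signals lysosomal stress, was at 10.33, 10.52 and 10.62 against 10.58, 10.56 and 10.51 (difference -0.055). Tfeb itself was at 6.04, 5.79 and 5.93 on the knockout-labelled and at 5.92, 5.82 and 5.69 on the wild-type arrays. Its difference of 0.11 had a 95% interval of -0.14 to 0.37 (limma, adjusted p = 0.799).

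The 12 members with an E-box core in their window had 4 higher and 8 lower means, with a median of -0.023 and differences from -0.14 to 0.038. That split turned with the scaling: 0 were higher and 12 lower after median centring, and 7 were higher and 5 lower after renewed quantile normalization. Among the 32 members with a window and no such core, 18 were higher and 14 lower, with a median of 0.014, or 12 and 20 after median centring. All 12 with a core were bright, while some of the 32 were dim. With dim probe sets left out, 12 of 23 without a core were higher and 11 lower, with a median of 4.13e-05. Limma called 0 of the 12 and 0 of the 32, and 0 and 1 reached an unadjusted p under 0.05. Lamp1, with its 4 cores, differed by -0.016, and Ctsd and Atp6v1a, which hold both kinds of motif shown above, by 0.034 and 0.033.

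**Figure D3:**
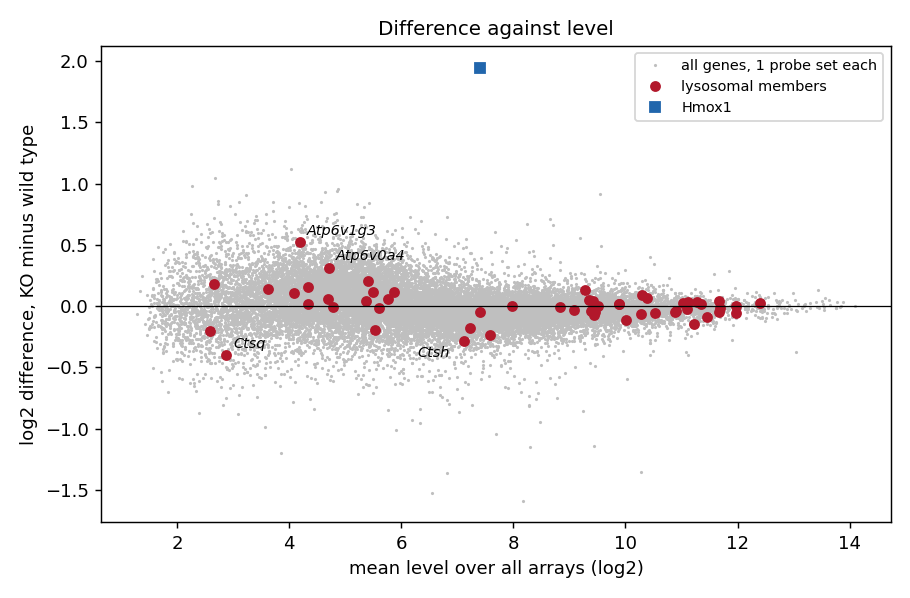
Log2 difference against mean log2 level for 22180 genes (grey), the 55 members (red) and Hmox1 (blue square). Members above a level of 8 lie close to 0, dim members scatter as other dim genes do, and Hmox1 stands at 1.95.

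Other genes of the pathway were read from 5 lists, of which 84 of 92 genes were measured. Limma called 0 of the 84, and 5 reached an unadjusted p under 0.05, against 6.51% of all genes. Of the 84, 82 were above the 40th percentile. Among all 15790 genes above it, 374 reached that p in the higher direction and 428 in the lower. With the replicate block, 0 of the further hydrolases and 0 of the other membrane proteins reached an unadjusted p under 0.05. Further lysosomal hydrolases and their activators leaned to lower values: 18 of 25 had a lower mean, with a median of -0.057, and 59.3% of all genes above the 40th percentile were lower. The count of lower means ran from 16 after renewed quantile normalization to 24 after median centring. Centring lowered the differences of all genes alike, and their median went from -0.0098 to -0.057. No share of all genes with lower means was taken after centring, for this list or the others. In 6 of the 25, Naglu, Sgsh, Arsb, Dpp7, Idua and Tpp1, the groups did not overlap, all in the lower direction, against 9.54% of all genes above the 40th percentile. Idua, the iduronidase of heparan and dermatan sulfate breakdown, was at 8.77, 8.80 and 8.80 against 8.98, 9.09 and 8.96. The knockout-labelled values were nearly identical and lay below all wild-type values, and the difference was -0.22 (95% interval -0.41 to -0.031, limma, adjusted p = 0.567). Naglu, a glucosaminidase of the same pathway, differed by -0.23, and the dipeptidyl peptidase gene Dpp7 by -0.18.

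Other lysosomal membrane proteins had 11 higher and 11 lower means among 22, or 4 and 18 after median centring. Tmem175, a potassium channel of the lysosomal membrane at a Parkinson disease risk locus, was at 9.21, 9.17 and 9.22 on the knockout-labelled and at 9.47, 9.40 and 9.40 on the wild-type arrays. The difference was -0.22 (95% interval -0.40 to -0.044, limma, adjusted p = 0.557). Atp13a2, Ostm1 and Hgsnat also separated in the lower direction, by -0.11, -0.048 and -0.050, which made 4 of 22 against 9.54% of all genes above the 40th percentile. Mcoln2, a relative of Mcoln1, separated upward at a low level (difference 0.38, limma, adjusted p = 0.589), 1 of 22 against 4.98%, and the two-pore channel gene Tpcn1 differed by -0.27.

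Other V-ATPase genes outside the symbol rule, among them an a subunit and assembly factors, had 5 higher and 6 lower means among 11. Ccdc115, an assembly factor, was at 7.61, 7.57 and 7.40 against 8.01, 7.85 and 7.77. No knockout-labelled value reached the wild-type range, and the difference was -0.35 (95% interval -0.60 to -0.095, limma, adjusted p = 0.538). Separation in the lower direction was thus seen in 1 of 11 (9.09%), against 9.54% of all genes above the 40th percentile. Tcirg1, the osteoclast a subunit, and Dmxl2, a subunit of a pump assembly complex, differed by -0.17 and 0.16. Among sorting receptors and relatives of TFEB, 6 of 10 were higher, or 3 of 10 after median centring. Tfec, a myeloid member of the TFEB family, was at 4.70, 5.02 and 4.90 against 4.46, 4.46 and 4.45, all dim (difference 0.41, limma, adjusted p = 0.512). Its separation in the higher direction was 1 of 10 in this list, against 6.36% of all genes. The mannose phosphate receptor gene M6pr and the phosphotransferase gene Gnptab differed by -0.12 and -0.094. Ragulator, Rag and mTORC1 genes, which sense nutrients at the lysosome, were lower in 11 of 16, with 15 of 16 after median centring. Without knockout-labelled replicate 2, 7 of 16 were lower, and the median of -0.041 turned to 0.0055. Fnip1, Mlst8 and Rragb were at -0.12, -0.11 and -0.093.

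Across arrays, knockout-labelled replicate 2 gave the lowest mean of the brighter members. Over all 55 members, its mean deviation from wild type was -0.0122, and that of wild-type replicate 2 was -0.0127. Of the 44 brighter members, 15 (34.1%) were lowest on knockout-labelled replicate 2, as were 29.2% of all genes of that brightness. The mean deviation of these members from the wild-type mean was -0.063 there, 0.015 and 6.6e-05 on knockout-labelled replicates 1 and 3, and -0.010 to 0.017 on the wild-type arrays. Oligodendrocyte markers (-0.21) and endothelial and mural markers (-0.27) were also lowest on that array. Without it, limma called 0 members, and 30 of 55 had a higher mean.

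**Figure D4:**
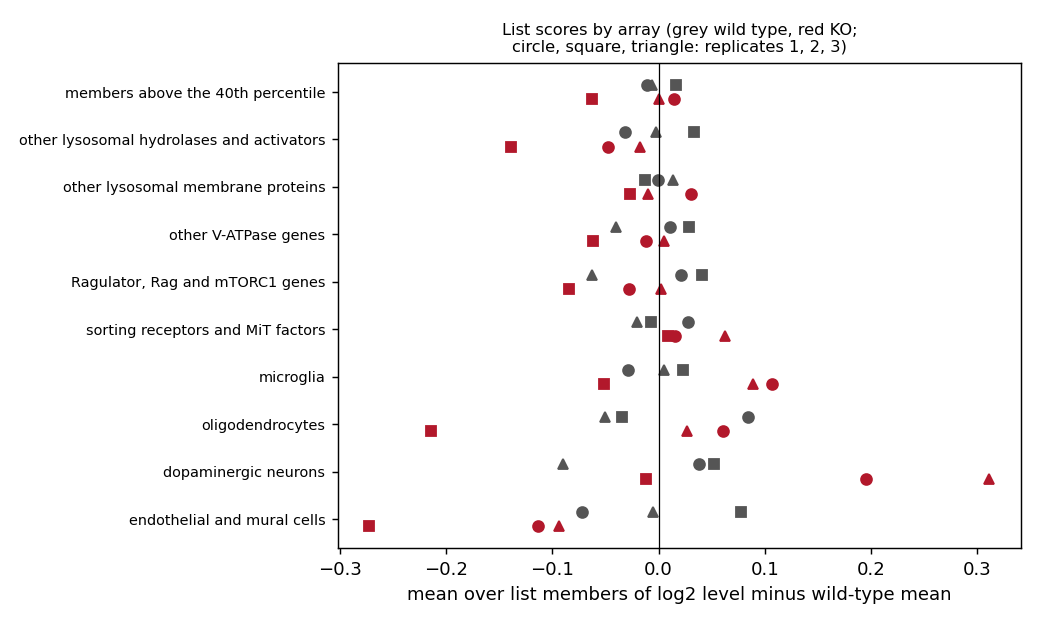
Deviation from wild type averaged over the genes of each list, for every array (x axis, log2 units), with wild type in grey and knockout-labelled in red. The brighter lysosomal members stay between -0.063 and 0.017, while cell type markers range more widely. The member score averages 44 genes and each marker score 9 to 12, so the widths of these ranges are not comparable. Knockout-labelled replicate 2 (red square) is the lowest array for these brighter members and for several lists.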

How the data were processed

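Total RNA of ventral midbrain was hybridised to 6 arrays, 3 per genotype as given in the labels. The authors deposited log2 values per probe set that RMA had produced, per the submitters' processing notes. Sources used here give neither its version nor its annotation. The values run from 0.745 to 14.1, with array medians of 5.58 to 5.69. RMA makes arrays alike in distribution, so a change common to most genes would be removed.

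Probe sets were named through a platform annotation updated to a RefSeq gene table (GRCm38.p6). A single gene was assigned to 23521 probe sets, more than 1 to 1814, and 16010 were unnamed. All 41345 probe sets were tested with limma 3.58.1 in R 4.3.3 (lmFit, eBayes, no covariate, prior of 2.21 degrees of freedom), knockout-labelled minus wild type, with Benjamini-Hochberg adjustment over all of them at 0.05. The fit was tested on simulated data. Motifs were searched on both strands of RefSeq promoter windows.

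The members and lists were chosen with earlier results of these data known. Every member may be named. Array values are given for members at an unadjusted p under 0.05, for the 6 highest and 6 lowest bright members, and for index genes. Atp6v0c, an index gene, was not analysed here. Values are also given for the members and for some listed genes whose groups separated, a choice made with the values in view. From each related list up to 3 genes with the smallest p are named. Alternatives were a replicate block, trended and robust variances, renewed quantile normalization, median centring, leaving out dim probe sets, averaging probe sets of a gene and leaving out each array.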

Additional observations from a re-analysis of the deposited data

How the results depend on the processing

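Limma called 0 members and 0 genes of the related lists under each of the 12 alternatives, and 0 to 3 members reached an unadjusted p under 0.05. Over all probe sets the count of 3 called became 0 with the replicate block and also 0 when any of the arrays was left out. The median difference of the members was -0.047 after each array was centred on its median, where that of all genes was -0.057, and it ran from -0.00504 to 0.0137 when single arrays were left out. Centring turned the sign of 13 members, the largest of them Atp6ap2 at 0.045. The replicate numbers are not shown to pair samples, since same-numbered arrays correlated at 0.086, -0.033 and 0.039 in their deviations. Trended and robust variances brought Ctss under an unadjusted p of 0.05. Leaving out knockout-labelled replicate 1 brought Atp6v1f and Ctsc there, leaving out wild-type replicate 1 brought Gaa there, and leaving out wild-type replicate 2 brought Ctsq. Atp6v1g3 kept a difference of 0.44 to 0.64 with adjusted p-values of 0.447 to 0.818, and it was not tested where dim probe sets were left out. Values near the floor of the array, as for the kidney and placental isoforms, limit what can be said of those genes.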

Other observations

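Lysosomal enzymes of the stepwise breakdown of heparan sulfate were set side by side after their values had been seen, so they carry no test as a group. All 6 that were measured were lower in the knockout-labelled group: Idua at -0.22, Naglu at -0.23, the sulfamidase gene Sgsh at -0.14, the iduronate sulfatase gene Ids at -0.055, the acetyltransferase gene Hgsnat at -0.050 and Gusb at -0.044. Sgsh was at 7.81, 7.75 and 7.76 against 7.82, 7.98 and 7.95. Hgsnat was at 9.63, 9.57 and 9.62 against 9.67, 9.66 and 9.64. The groups did not overlap for Idua, Naglu, Sgsh and Hgsnat, and they overlapped for Ids and Gusb. Among all genes above the 40th percentile, 59.3% were lower and 9.54% did not overlap in the lower direction. These shares cannot calibrate a set chosen on its values. Its genes are also counted among the members or lists above, so they add no further observations. When knockout-labelled replicate 2 was left out, 5 of the 6 were lower and Gusb turned to 0.050, and 5 of the 6 were also lower without wild-type replicate 2. Limma gave adjusted p-values of 0.567 to 0.939 for these genes.

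A probe set that the annotation assigns to both Glb1, the beta-galactosidase of lysosomes, and Tmppe was at 7.53, 7.36 and 7.54 on the knockout-labelled and at 7.50, 7.62 and 7.56 on the wild-type arrays. Its difference was -0.081 (95% interval -0.30 to 0.13, limma, adjusted p = 0.831), and it cannot be assigned to either gene.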
